A study of Homo sapiens with 8 samples.

Results

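ERVFRD-1, the gene of the placental fusion protein syncytin-2, was followed in Kasumi-1 acute myeloid leukemia (AML) cells together with MFSD2A, which encodes the syncytin-2 receptor, and with ERV3-1 and ERVMER34-1, human genes that also derive from retroviral envelopes. These 4 genes were taken from 19775 genes with a probe set listed for exactly 1 gene symbol, and they have 5 such probe sets among 41091. ERVFRD-1 was chosen by its high values in the arrays of wild type NR4A1, so its values in those arrays are given as a description with no test. The other 3 genes were taken for their family or their role as receptor.

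Kasumi-1 is a human cell line that carries the AML-ETO fusion gene. All cells were electroporated with in vitro transcribed RNA and their RNA was taken 6 h later. The RNA encoded wild type NR4A1 (NR4A1 WT, 3 arrays), NR4A1 with a zinc finger of the DNA binding domain mutated (NR4A1 CEAA, 2 arrays), or GFP as the transfection control (3 arrays). NR4A1 is an orphan nuclear receptor that acts as a tumor suppressor in AML. The system is a single cell line with a short pulse of transfected RNA, and the sources used here do not tell if the arrays of a group go back to separate cultures, so a p-value speaks only of the spread among these samples.

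Syncytins are envelope glycoproteins of ancient retroviruses that were kept by the host genome because they make cells fuse. Syncytin-2 is made in the trophoblast of the human placenta, where it binds MFSD2A on neighbouring cells and helps to form the multinucleate syncytiotrophoblast. It also carries the immunosuppressive stretch of retroviral envelopes. MFSD2A is at the same time a transporter that brings lysophosphatidylcholine with docosahexaenoic acid into the brain. ERV3-1 encodes an envelope protein of the HERV-R family that is cut short by a stop codon, and ERVMER34-1 encodes HEMO, an envelope protein that is shed from cells. The other human syncytin, syncytin-1, is encoded by ERVW-1 and uses the neutral amino acid transporters SLC1A5 and SLC1A4 as receptors.

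Each value is a log2 intensity from an Affymetrix human genome U133 Plus 2.0 array, after background correction and normalization by RMA (Robust Multiarray Analysis). Intensities of different probe sets are not amounts that can be set against each other, so differences were taken within a probe set across arrays, and the array median serves only as a mark for levels that may be background. The median of all probe sets was 4.755 to 4.802 in the 8 arrays, and a level below it may be background. Differences between 2 arrays of the same group had an SD across genes of 0.147 to 0.208 (7 pairs), and those between groups 0.248 to 0.409 (21 pairs). NR4A1 has 3 probe sets, with group means of 5.34 to 6.54 with NR4A1 WT, 5.28 to 6.54 with NR4A1 CEAA and 5.26 to 6.51 with GFP. Where they lie relative to the transfected coding sequence is not known here, so they check nothing about the labels.

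Promoter windows of RefSeq (250 bases before to 50 after a transcript start, GRCh38.p14) were found for 3 of the 4 genes, and they are shown because NR4A1 acts on DNA and the windows are the regulatory sequence at hand for these genes. They were searched on both strands for AAAGGTCA, the monomeric NR4A response element (NBRE), for AGGTCA, the hexamer that nuclear receptors bind and that the NBRE contains, for the ETS core CCGGAA, the RUNX core TGTGGT and the GCM1 site ATGCGGGT. Capitals mark each match. ERV3-1 has 2 windows, chr7:64999393-64999692 and chr7:65006638-65006937, both on the minus strand. MFSD2A has 1 window, chr1:39954895-39955194 on the plus strand. Read 5′ to 3′ in the direction of transcription, the sequences are
ERV3-1, the window with the hexamer: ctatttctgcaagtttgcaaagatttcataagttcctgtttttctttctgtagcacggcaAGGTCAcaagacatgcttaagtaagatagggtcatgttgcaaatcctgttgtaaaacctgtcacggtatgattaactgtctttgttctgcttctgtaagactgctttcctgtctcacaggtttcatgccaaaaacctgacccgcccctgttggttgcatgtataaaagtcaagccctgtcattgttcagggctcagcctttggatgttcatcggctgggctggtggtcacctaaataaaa
ERV3-1, the window with an ETS core: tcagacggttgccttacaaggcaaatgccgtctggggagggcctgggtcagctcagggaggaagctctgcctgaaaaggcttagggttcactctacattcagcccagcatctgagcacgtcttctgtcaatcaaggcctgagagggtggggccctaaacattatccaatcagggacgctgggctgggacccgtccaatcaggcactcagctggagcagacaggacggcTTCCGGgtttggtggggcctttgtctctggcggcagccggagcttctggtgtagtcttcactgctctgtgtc
MFSD2A: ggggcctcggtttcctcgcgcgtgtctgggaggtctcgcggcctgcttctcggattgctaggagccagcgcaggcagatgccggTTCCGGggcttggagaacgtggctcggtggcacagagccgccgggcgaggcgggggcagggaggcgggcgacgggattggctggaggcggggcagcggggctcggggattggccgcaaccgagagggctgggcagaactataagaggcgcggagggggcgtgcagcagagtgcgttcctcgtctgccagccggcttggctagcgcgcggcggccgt
The first ERV3-1 window holds 1 hexamer and the second 1 ETS core. The MFSD2A window holds 1 ETS core, has a GC content of 72.0% and contains 35 CpG. The ERVMER34-1 window, on chromosome 4, has a GC content of 68.7% and holds none of the 5 motifs. No window of the 3 genes holds an NBRE, a RUNX core or a GCM1 site. Among 35116 windows of the same length, 1.22% hold an NBRE, 13.8% the hexamer, 17.2% an ETS core, 13.1% a RUNX core and 0.259% a GCM1 site. A match describes these letters only and is not a binding site. The study located most NR4A1 binding at regulated genes far from the transcript start, so the lack of a motif in a window does not speak of binding elsewhere. ERVFRD-1 is the gene without a window.

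ERVFRD-1 was above the array median with NR4A1 WT and below it with NR4A1 CEAA and GFP. Its only probe set read 9.42, 9.67 and 9.52 with NR4A1 WT, 4.63 and 4.64 with NR4A1 CEAA, and 4.35, 4.47 and 4.44 with GFP (log2 intensity). All 3 NR4A1 WT arrays lay above every other array, and the NR4A1 CEAA and GFP arrays were all under the median of the probe sets. The group mean was 9.54 ± 0.13 with NR4A1 WT (SD, n = 3), 4.63 ± 0.0056 with NR4A1 CEAA (SD, n = 2) and 4.42 ± 0.07 with GFP (SD, n = 3).

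The difference of NR4A1 WT from GFP was 5.12 on the log2 scale, or 34.7-fold in intensity, with no test. It was the 2nd highest of 19775 genes, after that of IL7R, the receptor of interleukin-7, at 7.30. In all, 13 genes differed by at least 3. The difference of NR4A1 WT from NR4A1 CEAA was 4.91, again the 2nd highest. Since the GFP level lies below the array median and may be background, the fold change in transcript is not known from these intensities. In RNA from whole cultures, a change in the share of cells with a transcript and a change in its amount per cell cannot be told apart.

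NR4A1 CEAA was compared with GFP by limma. The low values in both groups belong to the pattern that made the NR4A1 WT arrays stand out, so this p is not independent of the choice of the gene, and both levels may be background. ERVFRD-1 was 0.21 higher with NR4A1 CEAA on the log2 scale (standard error 0.08, 95% interval 0.03 to 0.40). Both NR4A1 CEAA arrays lay above the 3 GFP arrays. The difference did not pass the test over all genes (limma, unadjusted p = 0.0304, adjusted p = 0.11) and had q = 0.734 by Rank Product. It passed with array weights in the fit (limma, adjusted p = 0.0491).

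**Figure D1:**
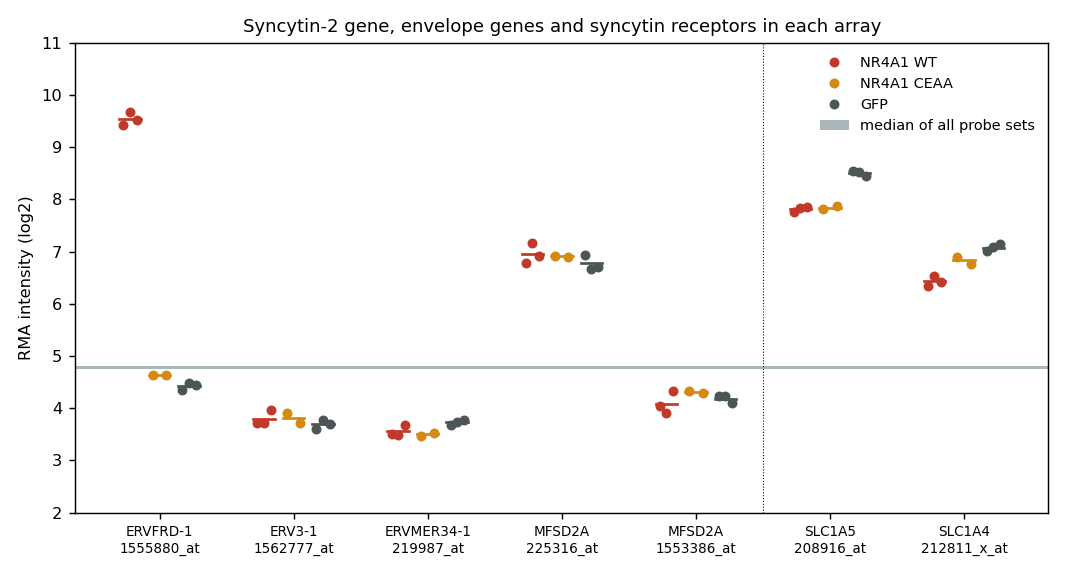
RMA intensity (log2, y axis) of each probe set of the 4 genes and, right of the dotted line, of the syncytin-1 receptors, in each array (points) with the mean of each group (bars), for NR4A1 WT, NR4A1 CEAA and GFP from left to right. The grey line spans the array medians, 4.755 to 4.802. ERVFRD-1 stands at 9.42 to 9.67 with NR4A1 WT and below the line in the other 5 arrays. The groups of the brighter MFSD2A probe set overlap, and SLC1A5 is lower with both forms of NR4A1 than with GFP.

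The receptor gene MFSD2A did not pass the test in any of the 3 comparisons. Its brighter probe set read 6.78, 7.16 and 6.91 with NR4A1 WT, 6.92 and 6.90 with NR4A1 CEAA, and 6.94, 6.66 and 6.71 with GFP. All 8 arrays were above the median of the probe sets, and the 3 groups overlap. NR4A1 WT differed from GFP by 0.18 (95% interval -0.07 to 0.43, limma, adjusted p = 0.321), NR4A1 CEAA differed from GFP by 0.14 (-0.14 to 0.41, adjusted p = 0.498), and NR4A1 WT differed from NR4A1 CEAA by 0.04 (-0.24 to 0.32, adjusted p = 0.834). The intervals reach at most 0.43, and a p that misses the threshold does not show that the level was the same. The other probe set had group means of 4.09 with NR4A1 WT, 4.30 with NR4A1 CEAA and 4.18 with GFP, all under the median, and passed in none of the comparisons. Its NR4A1 CEAA arrays, at 4.28 and 4.32, lay above the GFP arrays, at 4.10 to 4.23.

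ERV3-1 was under the median in every array. Its probe set read 3.71, 3.71 and 3.97 with NR4A1 WT, 3.90 and 3.71 with NR4A1 CEAA, and 3.59, 3.78 and 3.70 with GFP, with overlapping groups. The difference from GFP was 0.11 with NR4A1 WT (95% interval -0.11 to 0.32, limma, adjusted p = 0.508) and 0.12 with NR4A1 CEAA (-0.12 to 0.35, adjusted p = 0.491). NR4A1 WT and NR4A1 CEAA differed by -0.01 (-0.25 to 0.23, adjusted p = 0.951).

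ERVMER34-1 was also under the median in every array, and its means were lower with both forms of NR4A1 than with GFP without passing the test. Its probe set read 3.50, 3.48 and 3.68 with NR4A1 WT, 3.47 and 3.53 with NR4A1 CEAA, and 3.68, 3.73 and 3.77 with GFP. The NR4A1 CEAA arrays lay below all GFP arrays, while replicate 3 of NR4A1 WT reached the lowest GFP array. The difference from GFP was -0.17 with NR4A1 WT (95% interval -0.32 to -0.02, limma, adjusted p = 0.111) and -0.23 with NR4A1 CEAA (-0.39 to -0.06, adjusted p = 0.0678). NR4A1 WT and NR4A1 CEAA differed by 0.05 (-0.12 to 0.22, adjusted p = 0.645). Without replicate 3 of NR4A1 WT both differences from GFP passed, at -0.24 with NR4A1 WT (adjusted p = 0.0308) and -0.23 with NR4A1 CEAA (adjusted p = 0.0345).

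Counted over the genes, 0 of the 3 others than ERVFRD-1 passed in NR4A1 WT against GFP (limma), where 9.97% of all genes were higher and 10.3% lower, and 1 of 3 had an unadjusted p under 0.05. In NR4A1 CEAA against GFP, 0 of 4 passed, where 7.14% of all genes were higher and 12.1% lower. There 2 of 4 had an unadjusted p under 0.05, among them ERVFRD-1, whose p is not independent of its choice. In NR4A1 WT against NR4A1 CEAA, 0 of 3 passed, where 18.0% of all genes were higher and 13.4% lower, and 0 of 3 had an unadjusted p under 0.05. The shares of all genes given here are for an adjusted p. At an unadjusted p under 0.05 the share is larger and was not counted, so the unadjusted counts are not read as an excess. Rank Product passed 0 of these genes in each comparison. The comparisons with GFP share the GFP arrays, so they are not independent of each other.

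Other genes of retroviral envelopes, and genes named for a HERV-H long terminal repeat, were set beside ERVFRD-1. Of 20 genes on this list, 10 have a single-symbol probe set, and 5 of them were under the median in all 3 group means. Of the 9 other than ERVFRD-1, 1 was higher with NR4A1 WT than with GFP (11.1%, against 9.97% of all genes) and 0 were lower (10.3% of all genes). With NR4A1 CEAA 0 were higher (7.14% of all genes) and 1 was lower (11.1%, against 12.1%). The median difference over these 9 genes was 0.06 with NR4A1 WT, where that of all genes was 0.0019, and 0.04 with NR4A1 CEAA, where that of all genes was -0.03.

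HHLA2 encodes an immune checkpoint ligand of the B7 family and is not an envelope gene. It read 3.24, 3.37 and 3.22 with NR4A1 WT, 3.01 and 3.09 with NR4A1 CEAA, and 3.07, 2.90 and 2.88 with GFP. NR4A1 WT differed from GFP by 0.33 (limma, adjusted p = 0.013), at a level under the median of the arrays, and the other 2 probe sets of the gene did not pass. It did not pass without replicate 2 or without replicate 3 of GFP.

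ANKRD13C-DT, a non-coding transcript that older tables call HHLA3, read 6.74, 6.55 and 6.52 with NR4A1 WT, 5.93 and 6.01 with NR4A1 CEAA, and 6.36, 6.49 and 6.49 with GFP. It was 0.48 lower with NR4A1 CEAA than with GFP (difference -0.48, limma, adjusted p = 0.0066), and NR4A1 WT differed from NR4A1 CEAA by 0.63 (adjusted p = 0.000674). The call against GFP was lost without replicate 1 of NR4A1 CEAA.

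The gene of the other syncytin, ERVW-1, read 3.55, 3.76 and 3.84 with NR4A1 WT, 3.63 and 3.52 with NR4A1 CEAA, and 3.92, 3.31 and 3.53 with GFP. Its difference from GFP was 0.13 with NR4A1 WT (limma, adjusted p = 0.632) and -0.02 with NR4A1 CEAA (adjusted p = 0.964). ERVH48-1, whose product suppressyn blocks syncytin-1, had differences of 0.06 with NR4A1 WT and 0.05 with NR4A1 CEAA. With NR4A1 WT the differences were -0.01 for ERVV-1, -0.21 for ERVK13-1 and 0.02 for HHLA1, and with NR4A1 CEAA they were -0.07 for ERVV-1, 0.04 for ERVK13-1 and 0.15 for HHLA1. None of these 5 genes passed the test in either comparison.

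SLC1A5, the glutamine transporter ASCT2 and main receptor of syncytin-1, fell with both forms of NR4A1. It read 7.75, 7.83 and 7.86 with NR4A1 WT, 7.81 and 7.86 with NR4A1 CEAA, and 8.55, 8.52 and 8.44 with GFP. No NR4A1 array reached a GFP array, while NR4A1 WT and NR4A1 CEAA overlap. The difference from GFP was -0.69 with NR4A1 WT (standard error 0.06, limma, adjusted p = 8.53e-05) and -0.67 with NR4A1 CEAA (standard error 0.06, adjusted p = 0.000812), and the 2 forms differed by -0.02 (adjusted p = 0.85).

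SLC1A4, the related transporter ASCT1, read 6.34, 6.54 and 6.41 with NR4A1 WT, 6.90 and 6.76 with NR4A1 CEAA, and 7.01, 7.09 and 7.14 with GFP. It was lower with NR4A1 WT than with GFP (difference -0.65, limma, adjusted p = 0.00041) and than with NR4A1 CEAA (difference -0.40, adjusted p = 0.00522). Its difference between NR4A1 CEAA and GFP was -0.24 (adjusted p = 0.0683), which passed with array weights, with the filter on dim genes and without replicate 2 of NR4A1 WT. Of its 5 probe sets, 3 were lower with NR4A1 WT than with GFP and 2 did not pass. Without replicate 1 of NR4A1 CEAA the difference between the 2 forms of NR4A1 did not pass. Of the 3 receptor genes, 2 were lower with NR4A1 WT and 1 with NR4A1 CEAA, against 10.3% and 12.1% of all genes.

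**Figure D2:**
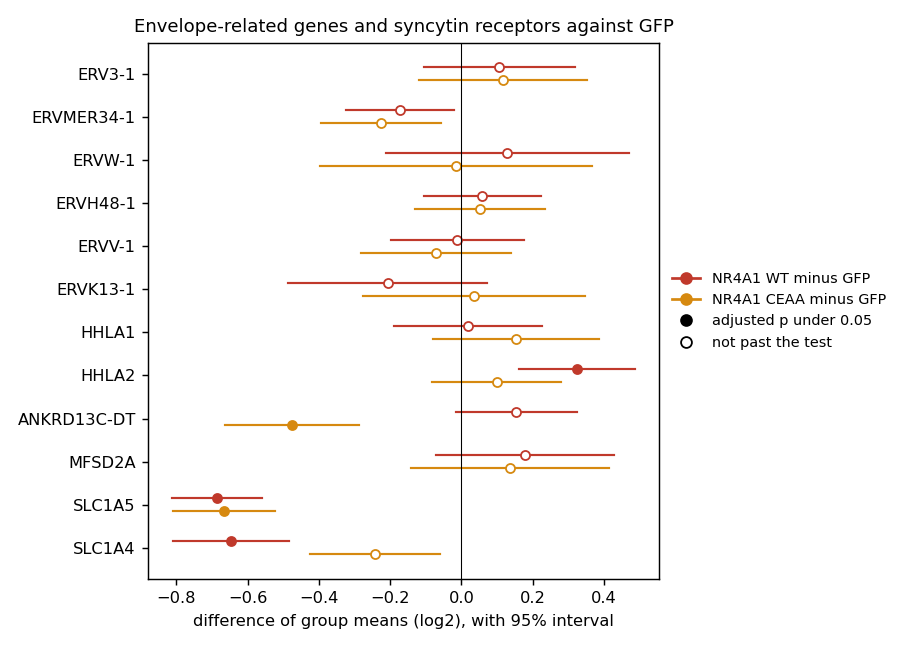
Difference of group means on the log2 scale (x axis) with its 95% interval (lines) for the measured genes of the envelope list other than ERVFRD-1 and for the syncytin receptors, with NR4A1 WT minus GFP above NR4A1 CEAA minus GFP in each row. Filled points passed an adjusted p under 0.05. SLC1A5 stands at -0.69 with NR4A1 WT and -0.67 with NR4A1 CEAA, and the intervals of MFSD2A include 0.

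The genes next to the 4 were read from the order of genes in RefSeq, which the choice of genes did not use. With the measured genes that overlap a gene or are the 3 nearest on each side, there are 26 neighbours. With NR4A1 WT 5 of them (19.2%) were higher than GFP and 1 (3.85%) was lower, against 9.97% and 10.3% of all genes. Of the 5, 3 lie around ERVMER34-1 and 2 around ERVFRD-1. As ERVFRD-1 was chosen by its NR4A1 WT values, the count is not fully independent of that choice. With NR4A1 CEAA 7 (26.9%) were higher and 0 lower, against 7.14% and 12.1% of all genes. Of the 7, 4 are related zinc finger genes around ERV3-1, which may not be separate signals.

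In the RefSeq gene table ERVFRD-1, on chromosome 6, overlaps SMIM13, which encodes a small membrane protein. SMIM13 read 10.45, 10.54 and 10.49 with NR4A1 WT, 9.75 and 9.86 with NR4A1 CEAA, and 9.62, 9.59 and 9.63 with GFP. NR4A1 WT differed from GFP by 0.88 (standard error 0.05, limma, adjusted p = 2.04e-05), and all 3 of its probe sets were higher. NR4A1 CEAA differed from GFP by 0.19, which did not pass (adjusted p = 0.0599) but did in 4 alternatives, among them array weights and the filter on dim genes. Of its other 2 probe sets 1 passed with NR4A1 CEAA, at 0.43 (adjusted p = 0.00368 over all probe sets). Whether signal of SMIM13 transcripts reaches the ERVFRD-1 probe set was not tested.

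The nearest measured gene on one side, NEDD9, encodes a scaffold protein of focal adhesions. It read 7.01, 7.04 and 7.03 with NR4A1 WT, 6.19 and 5.87 with NR4A1 CEAA, and 5.86, 5.75 and 5.71 with GFP. The difference of NR4A1 WT from GFP was 1.26 (standard error 0.08, limma, adjusted p = 3.43e-05), and that of NR4A1 CEAA from GFP 0.26 (adjusted p = 0.0994), which passed without replicate 2 of NR4A1 CEAA (adjusted p = 0.0302). The other 4 probe sets of NEDD9 did not pass against GFP. On the other side ELOVL2-AS1, ELOVL2, an elongase of polyunsaturated fatty acids, and SYCP2L had differences of 0.02, -0.22 and 0.05 with NR4A1 WT, and none passed. Farther along, LOC105374928 had a difference of 0.14 with NR4A1 WT that did not pass, and TMEM170B was 0.59 higher with NR4A1 CEAA (limma, adjusted p = 0.0227). NR4A1 WT differed from NR4A1 CEAA by -0.60 for TMEM170B (adjusted p = 0.0131). Its call against GFP was lost without either NR4A1 CEAA array and without replicate 1 or 2 of GFP.

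The promoter windows of the 2 neighbours that were higher with NR4A1 WT are shown since these are the genes around ERVFRD-1 that passed with NR4A1 WT. The SMIM13 window is chr6:11093584-11093883 on the plus strand, and the NEDD9 window, of 3 in the table, is chr6:11382261-11382560 on the minus strand.
SMIM13: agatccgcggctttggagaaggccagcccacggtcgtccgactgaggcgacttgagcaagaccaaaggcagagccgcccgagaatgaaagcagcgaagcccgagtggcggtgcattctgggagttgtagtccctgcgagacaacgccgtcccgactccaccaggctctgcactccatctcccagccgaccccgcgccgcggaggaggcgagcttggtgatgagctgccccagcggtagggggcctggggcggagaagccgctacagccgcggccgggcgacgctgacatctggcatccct
NEDD9: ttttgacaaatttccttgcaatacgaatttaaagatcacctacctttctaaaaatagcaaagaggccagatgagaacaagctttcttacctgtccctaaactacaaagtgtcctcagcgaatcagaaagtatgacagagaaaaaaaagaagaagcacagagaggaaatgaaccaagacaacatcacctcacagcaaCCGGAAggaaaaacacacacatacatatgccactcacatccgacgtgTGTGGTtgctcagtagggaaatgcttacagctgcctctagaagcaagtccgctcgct
The SMIM13 window holds none of the 5 motifs. The NEDD9 window holds 1 ETS core and 1 RUNX core, in capitals, and neither an NBRE nor the hexamer. A second NEDD9 window overlaps it, and the third holds none of the motifs.

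Around ERVMER34-1, on chromosome 4, 3 of 6 neighbours were higher with NR4A1 WT while ERVMER34-1 itself did not pass. RASL11B, a small GTPase of the Ras family, read 9.44, 9.68 and 9.48 with NR4A1 WT, 7.20 and 7.49 with NR4A1 CEAA, and 7.14, 7.21 and 7.10 with GFP. NR4A1 WT differed from GFP by 2.39 (standard error 0.09, limma, adjusted p = 2.27e-06). NR4A1 CEAA differed from GFP by 0.20 (adjusted p = 0.238). The second probe set of RASL11B did not pass.

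SCFD2, named for its Sec1 family domain, was 0.75 higher with NR4A1 WT (limma, adjusted p = 7.83e-05), with both of its probe sets past the test. USP46-DT, a divergent transcript at the deubiquitinase gene USP46, was 0.86 higher (adjusted p = 6.54e-05). USP46 itself had a difference of 0.13 with NR4A1 WT, which did not pass, and was 0.25 higher with NR4A1 CEAA (adjusted p = 0.0156), a call lost without either NR4A1 CEAA array and without replicate 3 of GFP. DANCR and LINC01618, both non-coding, passed in neither comparison.

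ERV3-1, on chromosome 7, overlaps ZNF117 and lies among KRAB zinc finger genes. None of its 7 neighbours passed with NR4A1 WT, and 4 were higher with NR4A1 CEAA than with GFP. These 4 are related zinc finger genes, and whether their probe sets share signal was not tested. ZNF117 read 4.95, 4.51 and 4.64 with NR4A1 WT, 5.04 and 5.12 with NR4A1 CEAA, and between 4.28 and 4.43 with GFP, with a difference of 0.71 for NR4A1 CEAA (limma, adjusted p = 0.00635) in 1 of its 4 probe sets. ZNF107, ZNF92 and ZNF273 were higher with NR4A1 CEAA by 0.40 (adjusted p = 0.0255), 0.35 (adjusted p = 0.0277) and 0.25 (adjusted p = 0.0362). The calls of ZNF107, ZNF92 and ZNF273 were each lost when any 1 of the NR4A1 CEAA or GFP arrays was left out, and that of ZNF117 without replicate 2 of NR4A1 CEAA (adjusted p = 0.0525). ZNF138, INTS4P1 and LINC03006 passed in neither comparison.

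Around MFSD2A, on chromosome 1, TRIT1 passed in both comparisons, in opposite directions. TRIT1, a tRNA isopentenyltransferase, read 8.34, 8.34 and 8.35 with NR4A1 WT, 8.92 and 8.91 with NR4A1 CEAA, and 8.73, 8.65 and 8.65 with GFP. Its difference from GFP was -0.34 with NR4A1 WT (limma, adjusted p = 0.00153) and 0.23 with NR4A1 CEAA (adjusted p = 0.0195), the second lost without either NR4A1 CEAA array and without replicate 2 or 3 of GFP. The other 5, namely MYCL, a MYC family gene, PPT1, RLF, TMCO2 and LOC101929536, passed in neither comparison.

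**Figure D3:**
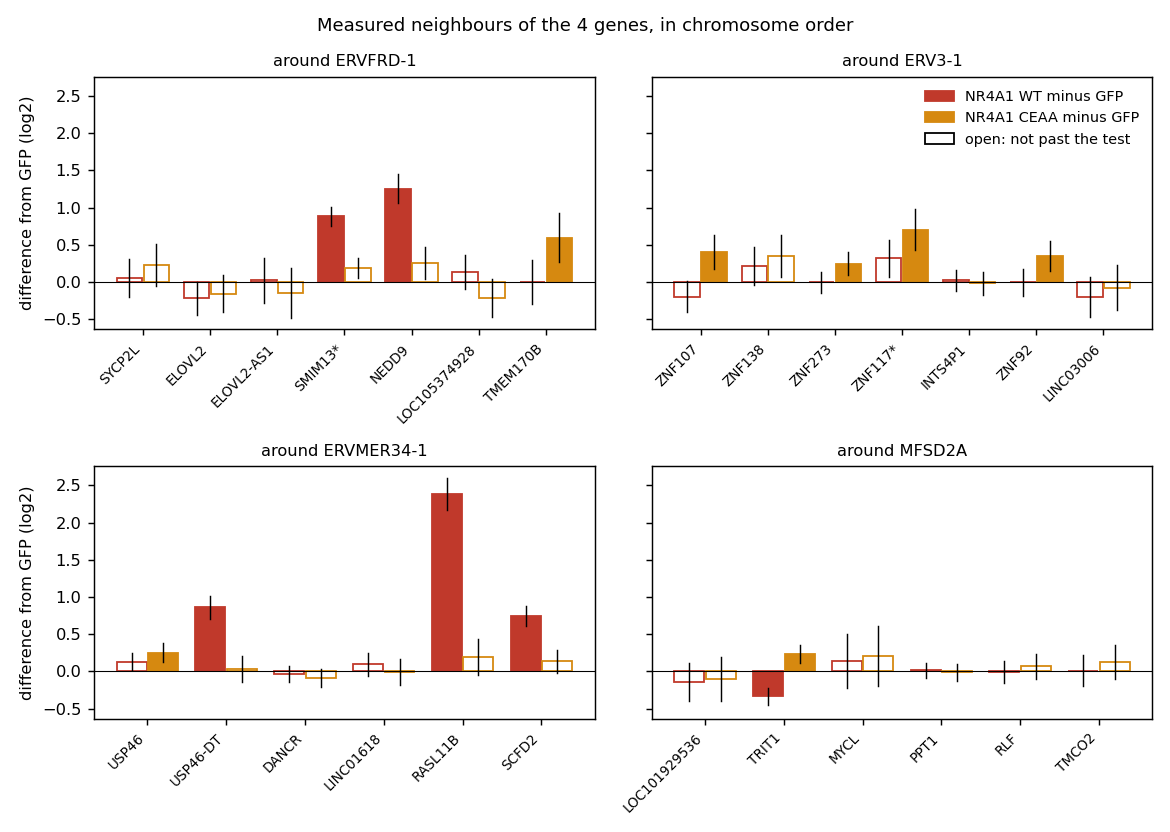
Difference from GFP on the log2 scale (y axis, with 95% intervals as black lines) for the measured neighbours of each of the 4 genes in chromosome order (x axis), with NR4A1 WT left of NR4A1 CEAA. Filled bars passed an adjusted p under 0.05, and an asterisk marks a gene that overlaps the one in the panel title. RASL11B at 2.39, NEDD9 at 1.26 and SMIM13 at 0.88 stand out with NR4A1 WT.

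The genes most like ERVFRD-1 were found by Pearson correlation over the 8 arrays, among 839 genes whose highest and lowest array differ by at least 1. They were PLCL2 (r = 0.9997), a phospholipase C like protein, PON2 (r = 0.9996), a paraoxonase, IL7R (r = 0.9995), CD83 (r = 0.9994), a marker of mature dendritic cells, and RAB33A (r = 0.9989), a Rab GTPase. Their differences of NR4A1 WT from GFP were 1.01 for PLCL2, 1.78 for RAB33A, 2.01 for PON2, 2.05 for CD83 and 7.30 for IL7R. All 5 share with ERVFRD-1 that the 3 NR4A1 WT arrays stand above the other 5, which lie close together. The 8 arrays are 3 groups, so such correlations describe the difference between groups and little else.

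**Figure D4:**
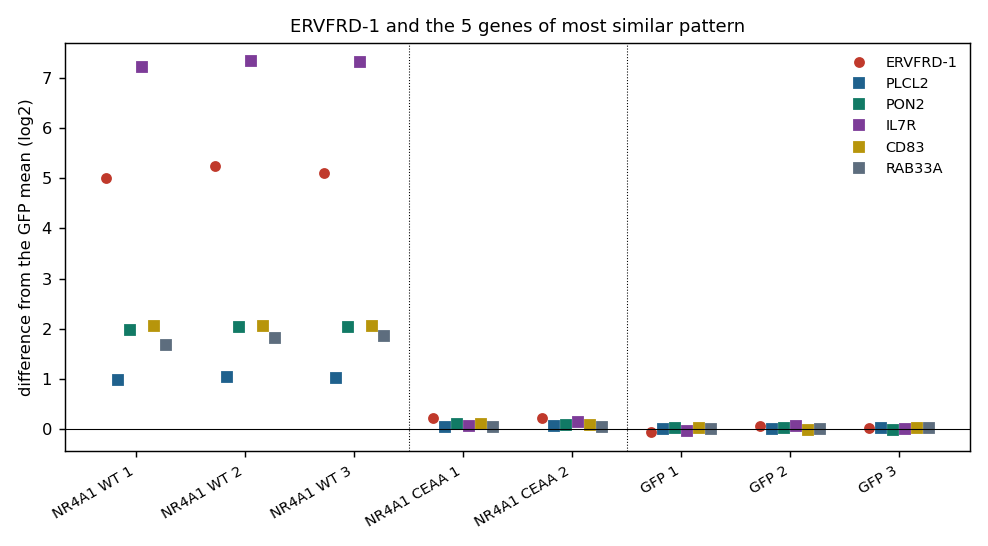
Difference from the mean of the GFP arrays on the log2 scale (y axis) in each array (x axis) for ERVFRD-1 (circles) and the 5 genes of highest correlation with it (squares). In the NR4A1 WT arrays IL7R lies above ERVFRD-1 and the other 4 below it, and in the other 5 arrays all 6 genes lie near 0.

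For MFSD2A the correlations were lower. Its range over the 8 arrays was 0.49, and its highest correlations among 840 genes were with PDGFRA (r = 0.870), PPM1F-AS1 (r = 0.763), C8orf48 (r = 0.741), PDILT (r = 0.731) and DNM1P35 (r = 0.718). The means of C8orf48, PDILT and DNM1P35 lay under the array median in every group, so these levels may be background. The correlation of MFSD2A with ERVFRD-1 over the 8 arrays was 0.436, that of ERV3-1 with ERVFRD-1 0.27 and that of ERVMER34-1 with ERVFRD-1 -0.376. These values describe 8 arrays in 3 groups.

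Lists of genes around these 4 were counted in the same fit, with no test of the list itself. Over all genes 9.97% were higher and 10.3% lower with NR4A1 WT, and 7.14% higher and 12.1% lower with NR4A1 CEAA. Of 20 MFSD transporters, the family of MFSD2A, 2 (10%) were higher and 1 (5%) lower with NR4A1 WT, and 2 (10%) higher and 3 (15%) lower with NR4A1 CEAA. SPNS2, the exporter of sphingosine-1-phosphate, was 0.69 lower with NR4A1 WT (difference -0.69, limma, adjusted p = 0.0118). MFSD11 was 0.59 higher (adjusted p = 0.00149) and MFSD6 0.39 higher (adjusted p = 0.0128). Neither passed by Rank Product (q = 0.0531 for MFSD11 and 0.273 for MFSD6), and MFSD6 did not pass without replicate 2 of GFP. The median difference was -0.02 with NR4A1 WT and 0.07 with NR4A1 CEAA.

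Of 29 genes of lysophospholipids and polyunsaturated fatty acids, 5 were higher and 5 lower with NR4A1 WT. With NR4A1 CEAA 5 were higher and 5 lower (17.2% each in both comparisons, above the shares of all genes). The list is wider than the lysophosphatidylcholine with docosahexaenoic acid that MFSD2A carries. LPCAT1, which acylates lysophosphatidylcholine, read 9.32, 9.34 and 9.25 with NR4A1 WT, 10.18 and 10.14 with NR4A1 CEAA, and 10.13, 10.14 and 10.14 with GFP, a difference from GFP of -0.83 with NR4A1 WT (limma, adjusted p = 1.55e-05) and 0.03 with NR4A1 CEAA (adjusted p = 0.79). AGPAT5 and AGPAT2, acyltransferases of phosphatidic acid synthesis, both passed in both comparisons. AGPAT5 differed from GFP by -0.53 with NR4A1 WT (adjusted p = 0.000708) and 0.66 with NR4A1 CEAA (adjusted p = 0.00135). AGPAT2 differed by -0.45 with NR4A1 WT (adjusted p = 0.00049) and -1.18 with NR4A1 CEAA (adjusted p = 0.000176). The median over the list was -0.02 with NR4A1 WT and -0.06 with NR4A1 CEAA.

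Of 39 genes of the syncytiotrophoblast and of trophoblast fusion, 25 had a mean over the 8 arrays under 4.774, the mean of the array medians. With NR4A1 WT 2 were higher and 2 lower, and with NR4A1 CEAA 2 higher and 2 lower (5.13% each, below the shares of all genes). GATA2, a transcription factor of blood progenitors and trophoblast, was 0.95 higher with NR4A1 WT (limma, adjusted p = 5.22e-05). ADAM12, a metalloprotease, was higher with NR4A1 WT by 0.86 (adjusted p = 9.97e-06) and with NR4A1 CEAA by 0.47 (adjusted p = 0.00123). ENG, the TGF-beta coreceptor endoglin, fell by 0.60 with NR4A1 WT (adjusted p = 9.84e-05) and by 0.34 with NR4A1 CEAA (adjusted p = 0.00529, lost without replicate 1 of NR4A1 CEAA). The list's median was -0.02 with NR4A1 WT and -0.05 with NR4A1 CEAA. Levels of the 8 defining markers of the syncytiotrophoblast ran from 3.10 to 5.46 with NR4A1 WT, from 3.15 to 5.28 with NR4A1 CEAA and from 3.23 to 5.36 with GFP, and 0 of 8 passed in any comparison. They include GCM1, the transcription factor that drives syncytin genes in trophoblast, with means of 3.39 with NR4A1 WT, 3.17 with NR4A1 CEAA and 3.40 with GFP. Of the 6 measured Kasumi-1 markers, 1 was higher and 2 were lower with NR4A1 WT than with GFP (9.97% and 10.3% of all genes). With NR4A1 CEAA 1 was higher and 1 lower than with GFP (7.14% and 12.1% of all genes). In NR4A1 WT against NR4A1 CEAA 1 was higher and 3 were lower (18.0% and 13.4% of all genes). With NR4A1 WT the stem cell antigen CD34 was higher by 0.28 (limma, adjusted p = 0.0251), while RUNX1T1, the ETO gene, fell by 0.36 (adjusted p = 0.00122) and the myeloid factor SPI1 fell by 0.97 (adjusted p = 7.73e-05). With NR4A1 CEAA the receptor gene KIT was higher by 0.25 (adjusted p = 0.0159) and SPI1 fell by 0.55 (adjusted p = 0.00458). The granulocyte enzyme MPO and the surface peptidase ANPEP passed in neither comparison with GFP. The means of all 6 lay above the array medians in each group.

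Of 21 myeloid cell fusion genes, 4 (19.0%) were higher and 3 (14.3%) lower with NR4A1 WT, against 9.97% and 10.3% of all genes. With NR4A1 CEAA 5 (23.8%) were higher and 2 (9.52%) lower, against 7.14% and 12.1% of all genes. By Rank Product 0 were higher and 0 lower with NR4A1 CEAA, where 93 and 268 of 19775 genes were. TREM2, a receptor of macrophages and osteoclast precursors, read 10.87, 11.03 and 11.06 with NR4A1 WT, 6.84 and 6.98 with NR4A1 CEAA, and 7.53, 7.45 and 7.55 with GFP. It differed from GFP by 3.48 with NR4A1 WT (limma, adjusted p = 1.26e-07) and by -0.60 with NR4A1 CEAA (adjusted p = 0.00231). CD44, an adhesion receptor, differed from GFP by -0.65 with NR4A1 WT (adjusted p = 7.92e-05) and by 0.33 with NR4A1 CEAA (adjusted p = 0.00629, lost without replicate 1 of NR4A1 CEAA). ADAM12 is on this list as well. The median difference was -0.04 with NR4A1 WT and -0.05 with NR4A1 CEAA.

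Of 41 silencers of endogenous retroviruses, 4 (9.76%) were higher and 8 (19.5%) lower with NR4A1 WT, against 9.97% and 10.3% of all genes. With NR4A1 CEAA 9 (22.0%) were higher and 6 (14.6%) lower, against 7.14% and 12.1% of all genes. By Rank Product 1 was higher and 0 lower with NR4A1 CEAA, where 93 and 268 of 19775 genes were. TASOR2, a homolog of the HUSH subunit TASOR, differed from GFP by -0.63 with NR4A1 WT (limma, adjusted p = 0.000334) and 0.52 with NR4A1 CEAA (adjusted p = 0.00316). The HUSH subunit MPHOSPH8 was 0.49 higher with NR4A1 WT (adjusted p = 0.00888), and MORC2, a HUSH partner, fell by 0.41 (adjusted p = 0.00664). The median difference was -0.03 with NR4A1 WT and 0.08 with NR4A1 CEAA.

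Of 22 antiretroviral restriction factors, 4 (18.2%) were higher and 1 (4.55%) lower with NR4A1 WT, against 9.97% and 10.3% of all genes. With NR4A1 CEAA 4 (18.2%) were higher and 8 (36.4%) lower, against 7.14% and 12.1% of all genes. By Rank Product 1 was higher and 0 lower with NR4A1 CEAA, where 93 and 268 of 19775 genes were. The genes named next were picked for their change with NR4A1 WT. APOBEC3G, a cytidine deaminase that edits retroviral DNA, differed from GFP by 1.13 with NR4A1 WT (limma, adjusted p = 4.38e-06) and by -0.25 with NR4A1 CEAA (adjusted p = 0.0199, lost without either NR4A1 CEAA array and without replicate 1 or 2 of GFP). SAMHD1, which breaks down deoxynucleotides, was 0.85 higher with NR4A1 WT (adjusted p = 6.71e-05). SERINC5, which lowers the infectivity of virions, differed from GFP by -0.96 with NR4A1 WT (adjusted p = 1.31e-05) and by 0.38 with NR4A1 CEAA (adjusted p = 0.00461). For these factors the median was 0.06 with NR4A1 WT and -0.05 with NR4A1 CEAA.

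Of 25 genes derived from retroviral or retrotransposon gag and related elements, 1 (4%) was higher and 3 (12%) were lower with NR4A1 WT. The shares of all genes were 9.97% higher and 10.3% lower. With NR4A1 CEAA 0 were higher and 2 (8%) lower, against 7.14% and 12.1% of all genes. ARC, the neuronal gene whose product forms capsids, fell by 1.40 with NR4A1 WT (limma, adjusted p = 1.84e-05) and by 0.45 with NR4A1 CEAA (adjusted p = 0.0132, lost without either NR4A1 CEAA array). PNMA6A fell by 0.55 with NR4A1 WT (adjusted p = 0.000226) and did not pass by Rank Product (q = 0.0711). GIN1, named for a gypsy integrase, was 0.30 higher with NR4A1 WT (adjusted p = 0.0365), a call lost when any 1 of the GFP or NR4A1 CEAA arrays or replicate 2 of NR4A1 WT was left out. The median was -0.06 with both forms.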

How the data were processed

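For each probe set of an Affymetrix U133 Plus 2.0 array the authors deposited a log2 value, made with RMA in RMA Express (version not given in the sources used here). RMA corrects background, brings all arrays to 1 distribution and combines the probes of each set, which evens out differences shared by most genes. All 8 arrays were used, and their number limits the precision. The table has 54613 probe sets: 41091 carry 1 gene symbol, 1801 more than 1 and 11721 no symbol. Each of 19775 genes was followed by its single-symbol probe set of highest mean, and the other probe sets of named genes were read from a fit over all 41091. No detection call was used.

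The 3 groups were compared in 1 linear model (limma 3.58.1, R 4.3.3, lmFit and eBayes, two-sided), with 8.041 degrees of freedom per gene and Benjamini-Hochberg adjustment over all genes at 0.05. The fit and a Rank Product test (100 permutations, q under 0.05), the test named by the study, were tested on simulated data. The 4 genes and all gene lists were chosen with earlier results of these data known. Named are the 4 genes, all measured envelope and receptor genes, up to 3 genes per other list with the largest change past the test with NR4A1 WT, the 3 measured neighbours on each side, the 5 genes of highest correlation, the transfected gene, and cell type markers. Alternatives were Rank Product, an intensity trend, array weights, only the 2 groups compared, a filter on genes whose highest group mean was under 4.774, centring on array medians, a second quantile normalization, a block for the replicate number, a fit over all probe sets, and each array left out in turn. Promoter windows are those of RefSeq (GRCh38.p14, 35116 windows of 27305 genes), and gene order is that of the RefSeq gene table.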

Additional observations from a re-analysis of the deposited data

Results flagged for a closer look

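The effects of NR4A1 WT and NR4A1 CEAA against GFP were compared by limma for 58 of the named genes, and 32 passed (adjusted p under 0.05). The cell type markers are not in this count. Genes were named from most lists for their change with NR4A1 WT, so this count was in large part fixed by their choice and is not set against the share of all genes. No cause of these differences was tested. ERVFRD-1 is not among them, as its pattern chose it.

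Among the genes around the 4, the log2 difference of NR4A1 WT from NR4A1 CEAA was 0.69 for SMIM13, 1.00 for NEDD9, 0.35 for LOC105374928 and -0.60 for TMEM170B near ERVFRD-1. Near ERVMER34-1 it was 2.19 for RASL11B, 0.83 for USP46-DT and 0.61 for SCFD2. Near ERV3-1 it was -0.38 for ZNF117, -0.25 for ZNF273, -0.59 for ZNF107 and -0.36 for ZNF92, and near MFSD2A it was -0.57 for TRIT1. Some of these calls were not stable. That of LOC105374928 was lost in 9 of 16 alternatives and that of ZNF117 in 11 of 17. Those of TMEM170B and ZNF92 were lost without either NR4A1 CEAA array, and that of ZNF273 without replicate 2 of NR4A1 CEAA or replicate 3 of NR4A1 WT. Among the envelope-related and receptor genes the difference was 0.63 for ANKRD13C-DT and -0.40 for SLC1A4, the second lost without replicate 1 of NR4A1 CEAA.

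Among the genes named from other lists, it was -0.95 for ARC, -0.47 for PNMA6A, 0.52 for GIN1, 0.51 for MFSD11, 0.39 for MFSD6, -0.86 for LPCAT1, -1.19 for AGPAT5, 0.72 for AGPAT2, 1.00 for GATA2, 0.38 for ADAM12 and -0.26 for ENG. It was 4.08 for TREM2, -0.98 for CD44, -1.16 for TASOR2, -0.49 for MORC2, 1.38 for APOBEC3G, -1.34 for SERINC5 and 0.91 for SAMHD1. The call of MFSD6 was lost without either NR4A1 CEAA array and that of ENG without replicate 2 of NR4A1 CEAA.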

How the results depend on the processing

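Across 16 or 17 alternatives each, ERV3-1 and MFSD2A passed no test. ERVFRD-1 differed by 5.05 to 5.18 between NR4A1 WT and GFP and by 4.84 to 4.97 between NR4A1 WT and NR4A1 CEAA. The ends of both ranges come from leaving out single arrays. Some alternatives, such as Rank Product and the intensity trend, change the test and not the difference of means. These values chose the gene, so the ranges are a description and no support. ERVMER34-1 and ERVFRD-1 lay near the threshold. Against GFP, NR4A1 CEAA differed by 0.2164 for ERVFRD-1 (limma, adjusted p = 0.0491) and -0.2233 for ERVMER34-1 (adjusted p = 0.0356) with array weights, and by -0.2259 for ERVMER34-1 (adjusted p = 0.0376) with only those 2 groups in the fit. With each array left out in turn, ERVMER34-1 ran from -0.2351 to -0.1384 with NR4A1 WT (adjusted p = 0.0308 without replicate 3 of NR4A1 WT) and from -0.2517 to -0.20 with NR4A1 CEAA (adjusted p = 0.0345 without that array). ERVFRD-1 ran from 0.1759 to 0.2398 with NR4A1 CEAA. The cause was not tested. Leaving out a NR4A1 CEAA array keeps 1 array in that group, which is assumed to vary like the others. A filter on dim genes removed ERV3-1 and ERVMER34-1, so it gives no value for them.

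The replicate numbers did not pair the arrays: deviations from the group means correlated by -0.041 to 0.086 in 7 pairs of the same number and by -0.086 to 0.085 in 14 pairs of different numbers. With the replicate number as a block, ERVFRD-1 differed from GFP by 0.2141 with NR4A1 CEAA (limma, adjusted p = 0.125), ERVMER34-1 by -0.1846 (adjusted p = 0.13), and no call of the 4 genes changed. The block moved the genes higher with NR4A1 CEAA to 822, against 1411.

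By Rank Product 439 genes were higher and 420 lower in NR4A1 WT against GFP (1971 and 2034 with limma), 93 and 268 in NR4A1 CEAA against GFP (1411 and 2385), and 369 and 196 in NR4A1 WT against NR4A1 CEAA (3568 and 2657). The number higher in NR4A1 CEAA against GFP was 335 and 424 without replicate 1 and 2 of NR4A1 CEAA, and 876, 882 and 764 without replicate 1, 2 and 3 of GFP. The number lower was 973 and 1268 without replicate 1 and 2 of NR4A1 CEAA, and 1580 without replicate 3 of GFP. Of 1122 counts over the gene lists and settings, 173 moved by more than 1.5 times, 47 of them by Rank Product. Of the named genes past limma's test, Rank Product lost 10 of 29 in NR4A1 WT against GFP and 15 of 19 in NR4A1 CEAA against GFP. The 10 are HHLA2, TRIT1, PNMA6A, GIN1, MFSD11, MFSD6, AGPAT5, AGPAT2, MPHOSPH8 and MORC2. In NR4A1 WT against NR4A1 CEAA it lost 21 of 32. The cell type markers are left out of these counts.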
